A study of Mus musculus with 22 samples.

Results

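*Tbx21*, *Eomes*, *Runx1*, *Runx2*, *Runx3* and *Cbfb* were followed through conventional dendritic cells (cDCs) of mice, as 6 of the 34047 genes in the RNA count table and as the 156 of 177956 accessible windows whose closest gene was one of them, within 50000 bases. The rows were found by gene name, and the 6 genes had been picked with earlier results of these data known. RNA-seq covered 16 libraries and ATAC-seq, which reads where the Tn5 transposase can reach DNA, covered 6. All cells came from male and female mice of 6 to 10 weeks, homozygous for the *Tbx21*RFP-cre knock-in, in which a red fluorescent protein (RFP) and Cre are made from the *Tbx21* locus, and every library came from pooled organs, which for RNA-seq were those of a pair of mice. There was no treatment. cDC1s were sorted as CD11b-XCR1+ cells, T-bet- cDC2s as CD11b+XCR1- RFP- cells and T-bet+ cDC2s as CD11b+XCR1- RFP+ cells, from spleen (3 RNA and 2 ATAC libraries per subset) and, for RNA, from mesenteric lymph node (MLN; 3 cDC1, 2 T-bet- cDC2 and 2 T-bet+ cDC2 libraries). RFP was the sort marker, so *Tbx21* in T-bet+ cDC2s checks the sort and is not a finding. The knock-in allele was not in the reference genome to which reads were aligned.

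T-box factors read DNA through a T-box domain. T-bet, the product of *Tbx21*, directs type 1 programmes in T cells, natural killer (NK) cells and innate lymphoid cells, and Eomes is its closest relative there. Runx proteins bind DNA through a Runt domain, and CBFβ, made from *Cbfb*, does not contact DNA itself but raises their affinity for it; *Runx1* is best known from blood stem cells, *Runx2* from bone, and *Runx3* from CD8 T cells, NK cells, Langerhans cells and Esam-high splenic cDC2s. In T cells T-bet and Runx3 act on shared genes.

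*Tbx21* lies at chr11:97098071-97115331, *Eomes* at chr9:118478212-118486132, *Runx1* at chr16:92601466-92826149, *Runx2* at chr17:44495987-44814797, *Runx3* at chr4:135120652-135177990 and *Cbfb* at chr8:105170674-105217989 (mm10, GENCODE M21). *Tbx21*, *Runx1* and *Runx2* are read from the minus strand and the other genes from the plus strand. The windows are 150 bases around the summits of accessible peaks and are named here by the distance in bases of their centre from the most upstream annotated start of the gene, with a plus sign for downstream. 13 windows in 4 peaks fell to *Tbx21*, 47 in 22 peaks to *Runx1*, 67 in 33 peaks to *Runx2*, 24 in 7 peaks to *Runx3* and 5 in 3 peaks to *Cbfb*. No window had *Eomes* as its closest gene, and the nearest window lay 20885 bases from it.

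Sequences are printed for a selection of windows, from the mm10 genome, 5′ to 3′ on the strand of the gene. Most were chosen because they were called between the cDC2 subsets and hold a motif core, so the printed set does not show how often cores occur. *Runx2* +160057 and *Runx3* +38236 were called against cDC1s only. Windows over untranslated regions were left out. Capitals mark a T-box core, AGGTGT or its reverse complement ACACCT, or a Runx core, TGTGGT or its reverse complement ACCACA; a sequence without capitals holds neither. At *Tbx21*, the 250 bases before the transcription start and 2 windows that were more open in the T-bet+ than the T-bet- cDC2s, one of them with the only Runx core at the locus, read as follows.
Upstream of *Tbx21* (chr11:97115332-97115581): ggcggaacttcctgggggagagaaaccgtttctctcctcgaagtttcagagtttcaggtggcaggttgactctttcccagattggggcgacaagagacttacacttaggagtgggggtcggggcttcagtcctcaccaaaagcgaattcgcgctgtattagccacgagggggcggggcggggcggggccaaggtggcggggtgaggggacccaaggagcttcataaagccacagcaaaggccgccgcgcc
*Tbx21* +681 (chr11:97114576-97114725): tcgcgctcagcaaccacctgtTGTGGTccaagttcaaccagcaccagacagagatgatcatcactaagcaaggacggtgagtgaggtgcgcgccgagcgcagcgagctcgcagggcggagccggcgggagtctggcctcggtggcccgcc
*Tbx21* +2477 (chr11:97112780-97112929): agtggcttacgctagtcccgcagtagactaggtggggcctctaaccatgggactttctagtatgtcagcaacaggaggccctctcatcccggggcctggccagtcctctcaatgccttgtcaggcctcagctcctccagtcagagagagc
At *Runx1*, the intronic window with the smallest p-value in T-bet+ against T-bet- cDC2s is followed by the windows that changed between them and hold a Runx core, the last of which lies downstream of the gene and closed in T-bet+ cDC2s.
*Runx1* +7479 (chr16:92818596-92818745): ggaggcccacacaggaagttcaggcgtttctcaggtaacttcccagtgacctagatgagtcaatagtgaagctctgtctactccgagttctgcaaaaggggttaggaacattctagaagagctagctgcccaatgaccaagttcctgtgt
*Runx1* +12647 (chr16:92813428-92813577): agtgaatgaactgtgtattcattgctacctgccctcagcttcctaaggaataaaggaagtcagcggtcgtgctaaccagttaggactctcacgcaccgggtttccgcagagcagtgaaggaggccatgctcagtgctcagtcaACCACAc
*Runx1* +48066 (chr16:92778009-92778158): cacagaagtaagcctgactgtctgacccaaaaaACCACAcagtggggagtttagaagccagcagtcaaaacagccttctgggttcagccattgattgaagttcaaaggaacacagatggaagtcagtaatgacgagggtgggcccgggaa
*Runx1* +172066 (chr16:92654009-92654158): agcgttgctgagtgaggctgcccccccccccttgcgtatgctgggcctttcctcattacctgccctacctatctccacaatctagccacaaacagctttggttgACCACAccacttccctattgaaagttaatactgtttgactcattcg
*Runx1* +228250 (chr16:92597825-92597974): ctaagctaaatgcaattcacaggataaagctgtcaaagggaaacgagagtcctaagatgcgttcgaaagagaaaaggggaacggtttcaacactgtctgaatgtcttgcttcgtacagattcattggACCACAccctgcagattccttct
At *Runx2*, 1 intronic window was more open in T-bet- cDC2s than in both other subsets, 1 with a T-box core was shared by both cDC2 subsets, and 2 with a Runx core were open in T-bet+ cDC2s.
*Runx2* +104730 (chr17:44709993-44710142): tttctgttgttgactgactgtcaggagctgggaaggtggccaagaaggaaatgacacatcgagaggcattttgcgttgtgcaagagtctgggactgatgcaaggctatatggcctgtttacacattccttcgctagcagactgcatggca
*Runx2* +160057 (chr17:44654666-44654815): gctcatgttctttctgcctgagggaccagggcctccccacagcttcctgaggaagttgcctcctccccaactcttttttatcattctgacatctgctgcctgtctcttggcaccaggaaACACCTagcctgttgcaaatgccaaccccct
*Runx2* +233075 (chr17:44581648-44581797): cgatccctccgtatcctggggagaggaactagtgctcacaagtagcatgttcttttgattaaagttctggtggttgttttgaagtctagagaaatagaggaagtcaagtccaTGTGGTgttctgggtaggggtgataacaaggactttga
*Runx2* +249753 (chr17:44564970-44565119): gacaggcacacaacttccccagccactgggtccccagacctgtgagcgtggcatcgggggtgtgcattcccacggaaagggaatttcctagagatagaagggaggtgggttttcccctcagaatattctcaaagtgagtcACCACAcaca
At *Runx3*, the window with the only T-box core at the locus belonged to an intronic group of windows that were more open in cDC2s than in cDC1s.
*Runx3* +38236 (chr4:135158814-135158963): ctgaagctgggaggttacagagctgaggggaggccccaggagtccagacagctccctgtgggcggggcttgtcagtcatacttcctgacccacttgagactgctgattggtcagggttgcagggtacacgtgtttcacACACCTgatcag

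The RNA libraries held 20993220 to 29006549 counted reads and the ATAC libraries 7270164 to 10081555 reads in windows. In spleen the sorted populations carried their markers: 6 cDC1 markers summed to 74350 to 153300 normalized counts in spleen cDC1s and 7358 to 17470 in spleen cDC2s, whereas the T-bet+ cDC2 markers *Dtx1* and *Esam* summed to 10450 to 12000 in spleen T-bet+ cDC2s and 1253 to 1380 in spleen T-bet- cDC2s. Of the 6 cDC1 markers, only *Batf3* overlapped between spleen cDC1s and T-bet+ cDC2s. *Clec9a* had 224, 47.4 and 194 normalized counts in spleen T-bet- and 1.94, 6.46 and 1.02 in spleen T-bet+ cDC2s. *Cadm1* had 258, 295 and 918 against 49.4, 24.9 and 110. *Batf3* was lower in spleen T-bet- than T-bet+ cDC2s, and *Xcr1*, *Wdfy4* and *Itgae* overlapped between them. In MLN the sum of *Dtx1* and *Esam* did not separate the cDC2 subsets (2327 to 3546 in T-bet+ and 3052 to 3666 in T-bet- cDC2s). *Dtx1* alone did, with 782 and 362 normalized counts in T-bet+ and 73.6 and 50.8 in T-bet- cDC2s. *Esam* alone overlapped (1545 and 3184 against 3592 and 3001). The summed T-bet- cDC2 markers *Clec12a* and *Cx3cr1* also separated the subsets (528 to 578.5 in T-bet+ and 5894 to 6910 in T-bet- cDC2s). In MLN, replicate 2 of the T-bet+ cDC2s carried 867 normalized counts of the cDC1 marker *Xcr1* against 127 in replicate 1. The libraries also differed in how counts followed the GC content of transcripts. For each library, the deviation of log2 CPM from the mean of the gene over all RNA libraries was taken. Its Spearman correlation with the highest GC content of any 100 bases of a transcript was the measure, so values are relative to the other libraries. This correlation was 0.21 to 0.34 in 6 spleen libraries (cDC1 replicates 1 and 2, T-bet- cDC2 replicate 3 and all T-bet+ cDC2s), called the higher GC class here, and -0.4 to -0.18 in the other spleen libraries, and it was at most 0.04 in MLN. The class is given beside each result that it moved with.

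The first question was how strongly each gene was transcribed. Per length, *Cbfb* and *Runx3* were the most abundant: the group means of *Cbfb* ran from 7.95 to 31.4 RPKM (reads per kilobase of exon, scaled to library size) and those of *Runx3* from 2.53 to 27.4 RPKM. *Runx1* followed with 2.03 to 4.25 RPKM, *Runx2* with 0.617 to 2.05 RPKM and *Tbx21* with 0.134 to 8.65 RPKM, a level that depended on the subset. *Eomes* was close to undetected, with 0 to 5 reads per library, 16 reads in all and none in 11 of the 16 libraries. A count of 0 allows up to 3 reads, or 0.103 to 0.143 CPM (counts scaled to library size) at these depths, counting error only. *Eomes* was therefore left out of every test by the filter on low counts, and the other 5 genes were tested.

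**Figure D1:**
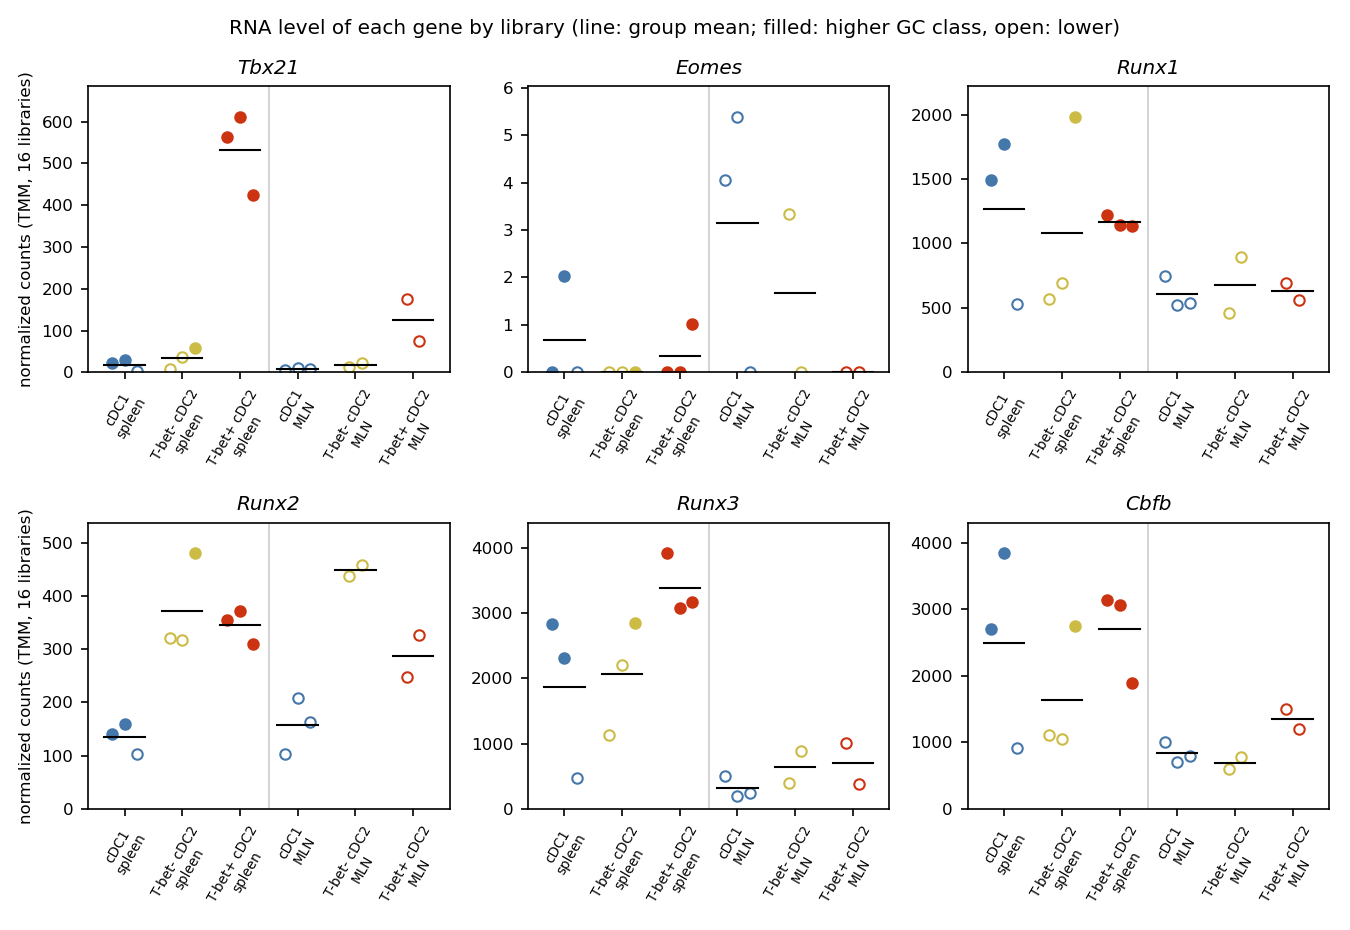
Normalized counts of each gene in the 16 RNA libraries, 1 point per library by subset and tissue, with a line at the group mean and filled points for libraries of the higher GC class. *Tbx21* stands out in T-bet+ cDC2s, *Runx2* lies above both cDC1 groups in every cDC2 library, and *Runx1*, *Runx3* and *Cbfb* are spread widely within the spleen cDC1 and T-bet- cDC2 groups, where the open points are the low ones.

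*Tbx21* followed the sort. In spleen it had 564, 612 and 423 normalized counts in T-bet+ cDC2s, 7.04, 37.4 and 58.3 in the T-bet- cDC2s and 21.8, 30.4 and 3.76 in cDC1s. T-bet+ cDC2s were thus far above the other subsets, which overlapped. In MLN it had 176 and 74.7 normalized counts in T-bet+ cDC2s, 13.4 and 23.0 in the T-bet- cDC2s and 6.09, 9.70 and 8.91 in cDC1s. The order of the group means was spleen T-bet+ cDC2s (533 ± 98.0, SD, n = 3), MLN T-bet+ cDC2s (125 ± 71.8, n = 2), spleen T-bet- cDC2s (34.2 ± 25.8, n = 3), spleen cDC1s (18.6 ± 13.6, n = 3), MLN T-bet- cDC2s (18.2 ± 6.80, n = 2) and MLN cDC1s (8.23 ± 1.9, n = 3), and the third to the fifth overlapped with their neighbours. In edgeR's quasi-likelihood test, *Tbx21* was 3.94 ± 0.78 (log2 fold change ± SE) higher in spleen T-bet+ than T-bet- cDC2s with a Benjamini-Hochberg adjusted p of 0.019, 4.82 ± 0.82 higher in spleen T-bet+ cDC2s than cDC1s (adjusted p = 0.003) and 3.94 ± 0.59 higher in MLN T-bet+ cDC2s than cDC1s (adjusted p = 0.009). The first of these passed in 11 of 18 alternative fits, with log2 fold changes of 2.89 to 4.5; it was 2.89 (adjusted p = 0.053) with the GC class as a term and 3.18 (adjusted p = 0.0045) within the higher class, and it missed the threshold without T-bet+ replicate 1, 2 or 3 (adjusted p = 0.066, 0.072 and 0.052) or T-bet- replicate 2 (0.066). In MLN, T-bet+ and T-bet- cDC2s differed by 2.76 ± 0.64, which did not pass (adjusted p = 0.27), and the difference from cDC1s was not called without T-bet+ replicate 1 (adjusted p = 0.077).

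The level of *Tbx21* outside T-bet+ cDC2s was low but not zero. In spleen it moved with the GC class. Among cDC1s it was 21.8 and 30.4 normalized counts in the higher class and 3.76 outside it. Among T-bet- cDC2s it was 58.3 in the higher class and 7.04 and 37.4 outside it. T-bet- cDC2s and cDC1s, neither of which was sorted as RFP+, were 0.88 apart in spleen (adjusted p = 0.49) and 1.18 apart in MLN (adjusted p = 0.33), both without a call. T and NK cells also make T-bet and Runx3, and the summed markers of these cells (10 genes) reached 49.4 to 128 normalized counts in spleen and 125 to 934 in MLN. Of the defining T cell genes, *Cd3d*, *Cd3e* and *Cd3g* had reads in 8, 6 and 2 of the 9 spleen libraries and in all 7 MLN libraries, *Cd247* in 8 of 9 and all 7, and *Lck* in 6 of 9 and all 7. Of the NK cell and cytotoxic genes, *Ncr1*, *Klrb1c*, *Gzma* and *Prf1* had reads in 2, 7, 4 and 3 spleen libraries and in 3, 4, 2 and 3 MLN libraries, and *Nkg7* had reads in all libraries. The part of such cells in the *Tbx21* and *Runx3* levels was not tested. In bulk samples, fewer cells of a type and less RNA per cell cannot be told apart.

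*Runx2* separated cDC2s from cDC1s. In spleen it had 141, 160 and 104 normalized counts in cDC1s, 320, 317 and 481 in T-bet- cDC2s and 355, 372 and 311 in T-bet+ cDC2s. In MLN it had 102, 209 and 164 in cDC1s, 438 and 459 in T-bet- cDC2s and 248 and 326 in T-bet+ cDC2s. No cDC2 library fell into the range of the cDC1s in either tissue, whereas the cDC2 subsets overlapped in spleen and did not in MLN. *Runx2* rose by 1.38 ± 0.29 in spleen T-bet+ cDC2s over cDC1s (adjusted p = 0.0091) and by 1.49 ± 0.29 in spleen T-bet- cDC2s over cDC1s (adjusted p = 0.007), and both calls held in each of 19 alternative fits, with 1.2 to 1.45 and 1.23 to 1.69. With the GC class as a term the differences were 1.21 (adjusted p = 0.0049) and 1.69 (adjusted p = 0.00074). In MLN, *Runx2* rose by 1.56 ± 0.34 in T-bet- cDC2s over cDC1s (adjusted p = 0.036), a call that was lost when any 1 library other than T-bet+ replicate 2 was left out (adjusted p up to 0.2), and was 0.88 ± 0.34 higher in T-bet+ cDC2s without passing (adjusted p = 0.18). Between T-bet+ and T-bet- cDC2s it differed by -0.11 ± 0.28 in spleen (adjusted p = 0.86) and by -0.68 in MLN (adjusted p = 0.65). *Runx2* overlaps *Supt3* and the antisense RNA *Runx2os1*, and since the strand setting of the counting is not given in the sources used here, reads that these genes could share cannot be told apart.

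*Runx3* was highest in spleen T-bet+ cDC2s. It had 3917, 3078 and 3171 normalized counts there, 1131, 2207 and 2845 in spleen T-bet- cDC2s and 2829, 2307 and 465 in spleen cDC1s. The T-bet+ group did not overlap the others, yet their spread was wide, and the differences of 0.71 ± 0.57 from T-bet- cDC2s (adjusted p = 0.57) and 0.87 from cDC1s (adjusted p = 0.36) did not pass. In MLN, *Runx3* had 1007 and 385 normalized counts in T-bet+ cDC2s, 390 and 893 in the T-bet- cDC2s and 500, 190 and 249 in cDC1s, all below every spleen library except cDC1 replicate 3. The MLN subsets overlapped, and none of their differences passed (0.11, 1.16 and 1.05, adjusted p from 0.29 up).

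*Runx1* was called between no pair of subsets. It had 1489, 1773 and 534 normalized counts in spleen cDC1s, 567, 693 and 1983 in spleen T-bet- cDC2s and 1224, 1145 and 1137 in spleen T-bet+ cDC2s. In MLN it had 748, 526 and 538 in cDC1s, 464 and 892 in T-bet- cDC2s and 691 and 563 in T-bet+ cDC2s. The subsets overlapped in each tissue, and the 6 differences between them lay within -0.21 and 0.20, none of them called.

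*Cbfb*, the partner shared by all Runx proteins, had 2712, 3846 and 914 normalized counts in spleen cDC1s, 1108, 1051 and 2756 in spleen T-bet- cDC2s and 3137, 3070 and 1899 in spleen T-bet+ cDC2s. In MLN it had 1003, 708 and 796 in cDC1s, 593 and 777 in T-bet- cDC2s and 1504 and 1196 in T-bet+ cDC2s. T-bet+ cDC2s overlapped the other subsets in spleen and lay above them in MLN, by 0.95 ± 0.30 over T-bet- cDC2s (unadjusted p = 0.013 and adjusted p = 0.38 in the edgeR fit) and by 0.70 over cDC1s (adjusted p = 0.17), and neither passed.

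*Runx1*, *Runx3* and *Cbfb* moved with the GC class of the spleen libraries. *Runx1* ranged from 1137 to 1983 normalized counts in the 6 libraries of the higher class and from 534 to 693 in the other libraries. In the spleen fit with subset and class as terms, its class difference was 1.66 on the log2 scale, and the values in brackets below are from the same fit. *Cbfb* ranged from 1899 to 3846 and from 914 to 1108 (1.62), and *Runx3* from 2307 to 3917 and from 465 to 2207 (1.63). Neither *Runx1*, *Cbfb* nor *Runx3* overlapped between the classes, and these differences were larger than 89.9% or more of those of the 14377 genes tested. How many of all genes had no overlap between the classes was not computed. *Tbx21* had a larger class difference (1.85) but overlapped between the classes (21.8 to 612 and 3.76 to 37.45), and *Runx2* overlapped as well (0.59). The classes were defined in these same libraries by how counts followed GC content, so class differences are not independent of that definition. By the highest GC content within a transcript, *Runx1* and *Tbx21* lay at percentile 79.4, *Runx3* at 87.4, and *Cbfb* and *Runx2* at 91.7. How far the definition moved the class differences was not tested. With the class as a term, T-bet+ minus T-bet- cDC2s in spleen was -0.78 for *Runx1*, -0.39 for *Runx3* and -0.22 for *Cbfb*, none of them called, so the sign of these differences changed with it. All spleen T-bet+ cDC2s were in the higher class, and only T-bet- replicate 3 shared it with them.

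In each comparison the count of genes called is set against the background. In spleen, 1 of 5 tested genes (*Tbx21*, the sort check) was called between T-bet+ and T-bet- cDC2s, where 5.38% of all 14377 genes tested were called, *Tbx21* and *Runx2* between T-bet+ cDC2s and cDC1s (18.2% of all genes) and *Runx2* between T-bet- cDC2s and cDC1s (15.9%). In MLN, 0 of 15298 genes (0%) were called between T-bet+ and T-bet- cDC2s by edgeR, 1444 had an unadjusted p under 0.05 and DESeq2 called 390; *Tbx21* was called between T-bet+ cDC2s and cDC1s (6.22% of all genes) and *Runx2* between T-bet- cDC2s and cDC1s (5.79%).

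**Figure D2:**
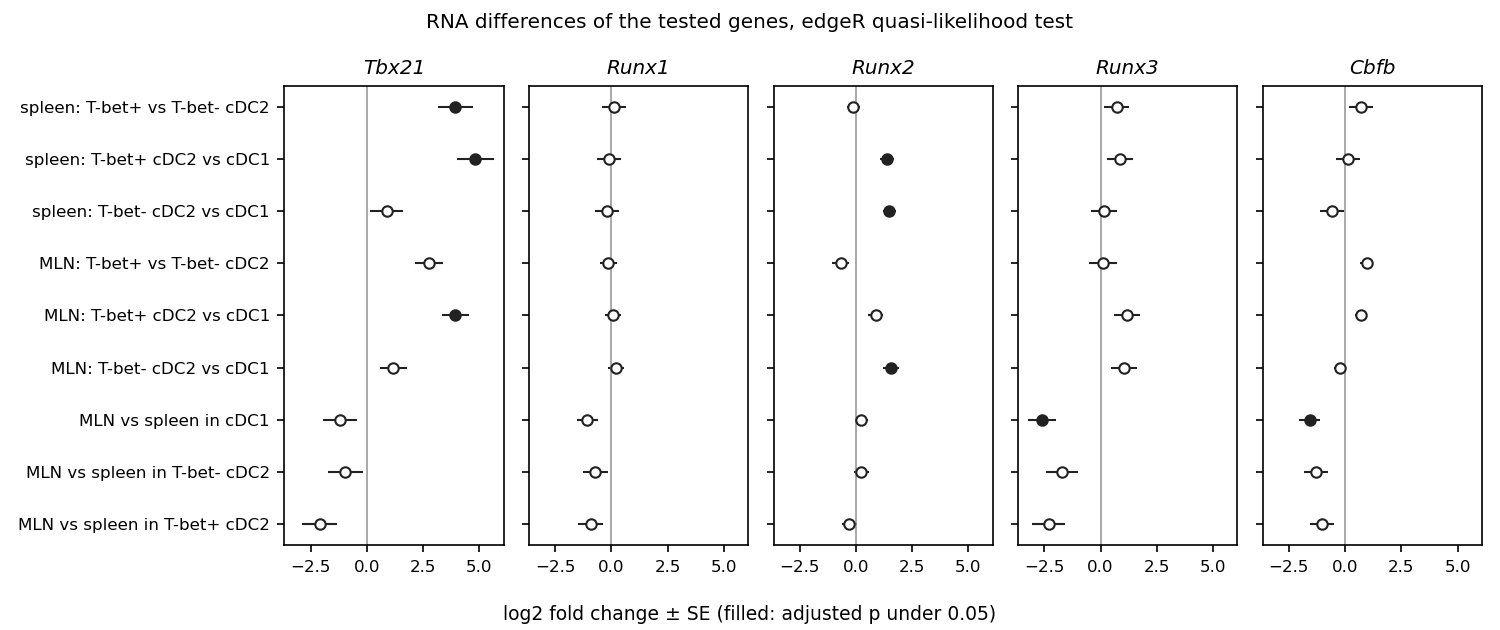
Log2 fold change with its SE for the 5 tested genes in 9 RNA comparisons, filled where the adjusted p was under 0.05. *Tbx21* is filled in 3 comparisons of T-bet+ cDC2s, *Runx2* in 3 comparisons of cDC2s with cDC1s, and *Runx3* and *Cbfb* between the tissues in cDC1s.

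Between the tissues, *Runx3* and *Cbfb* were lower in MLN cDC1s than in spleen cDC1s. *Runx3* fell by 2.59 ± 0.63 on the log2 scale (adjusted p = 0.02) and *Cbfb* by 1.58 ± 0.47 (adjusted p = 0.044), 2 of 5 tested genes against 11.7% of all 16795 genes tested. *Runx1* differed by -1.07 (adjusted p = 0.15), *Tbx21* by -1.19 (adjusted p = 0.29) and *Runx2* by 0.24 (adjusted p = 0.62). All MLN libraries were outside the higher GC class. The 1 spleen cDC1 library that was also outside it had 465 normalized counts of *Runx3* and 914 of *Cbfb*, inside the ranges of the MLN cDC1s (190 to 500 and 708 to 1003). With the class as a term the differences were -1.17 for *Runx3* (adjusted p = 0.3) and -0.27 for *Cbfb* (adjusted p = 0.67), and neither passed. Neither gene was called without spleen cDC1 replicate 1 or 2 or without MLN cDC1 replicate 2 or 3, and over 24 alternatives *Runx3* was called in 18 (-3.16 to -1.17) and *Cbfb* in 12 (-1.99 to -0.27).

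In the cDC2s no tested gene was called between the tissues, against 5.95% of all genes in T-bet- and 5.09% in the T-bet+ cDC2s. *Runx3* differed by -1.72 (adjusted p = 0.16) and -2.30 (adjusted p = 0.077), and *Tbx21* in T-bet+ cDC2s by -2.10 (adjusted p = 0.11). In T-bet+ cDC2s, *Tbx21*, *Runx1*, *Runx3* and *Cbfb* had no overlap between spleen and MLN, whereas *Runx2* overlapped. The share of all genes without such overlap was not computed. All spleen T-bet+ cDC2 libraries were in the higher GC class and all MLN libraries outside it, so tissue and class cannot be told apart within this subset. Whether the step from T-bet- to T-bet+ cDC2s differed between the tissues was tested as an interaction, and no tested gene was called (0.00595% of all genes); for *Tbx21* the difference of differences was -1.14 ± 1.05 (adjusted p = 0.95).

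Over the 16 libraries the log2 levels of *Runx1* and *Cbfb* had a Pearson correlation of 0.89, *Runx3* and *Cbfb* of 0.84, and *Runx1* and *Runx3* of 0.82, whereas *Runx2* had 0.12 with *Runx1* and 0.06 with *Cbfb*. The libraries share tissue, subset and GC class, so these values describe the table only. Among 10932 genes, the pattern most like that of *Tbx21* was that of *Meis3* (0.957), *Patz1* (0.956) and *Bmp2* (0.953), and that of *Runx2* was shared most by *Fam46a* (0.952), *Rasgrp1* (0.948) and *Lrp8* (0.934). *Runx1* was most like *Clint1* (0.954), *Ankle2* (0.953) and *Slc30a5* (0.950), and *Cbfb* most like *Usp1* (0.971), *Slc30a5* (0.967) and *Snx9* (0.951). For *Runx3* they were the transcript RP23-180L12.1 (0.986), *Mapk14* (0.976) and *Zfp36l2* (0.973).

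The chromatin at these loci was then compared in spleen, over the 147 of 156 windows that passed the filter on low reads. Windows were called where the adjusted p lay below 0.01 and the log2 fold change exceeded 0.5 in size. Between T-bet+ and T-bet- cDC2s, 16 windows (10.9%) were called against 6.28% of all 166547 windows tested: 14 were more open in T-bet+ cDC2s (3.92% of all windows) and 2 less open (2.36%). Between T-bet+ cDC2s and cDC1s, 46 windows (31.3%) were called against 23% of all: 43 more open (11%) and 3 less open (12%). Between T-bet- cDC2s and cDC1s, 31 windows (21.1%) were called against 17.9%, 26 of them more open (7.32%) and 5 less open (10.6%). Relative to cDC1s, all windows thus closed at least as often as they opened, while at these loci most calls were openings. Windows of 1 locus, and overlapping windows most of all, are not independent, so the shares are descriptions. The counts rested on few libraries: between the cDC2 subsets the count was 8 without T-bet- replicate 1 or 2 and 10 without T-bet+ replicate 1, and between T-bet+ cDC2s and cDC1s it was 30 without cDC1 replicate 2. DESeq2 called 7 and 25 windows in the same comparisons. Of the 16 windows called between the cDC2 subsets, 5 were called in all 13 refits with other tools, scalings or libraries: *Runx1* +7479 and +228250 and *Runx2* +233075, +245548 and +249753.

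**Figure D3:**
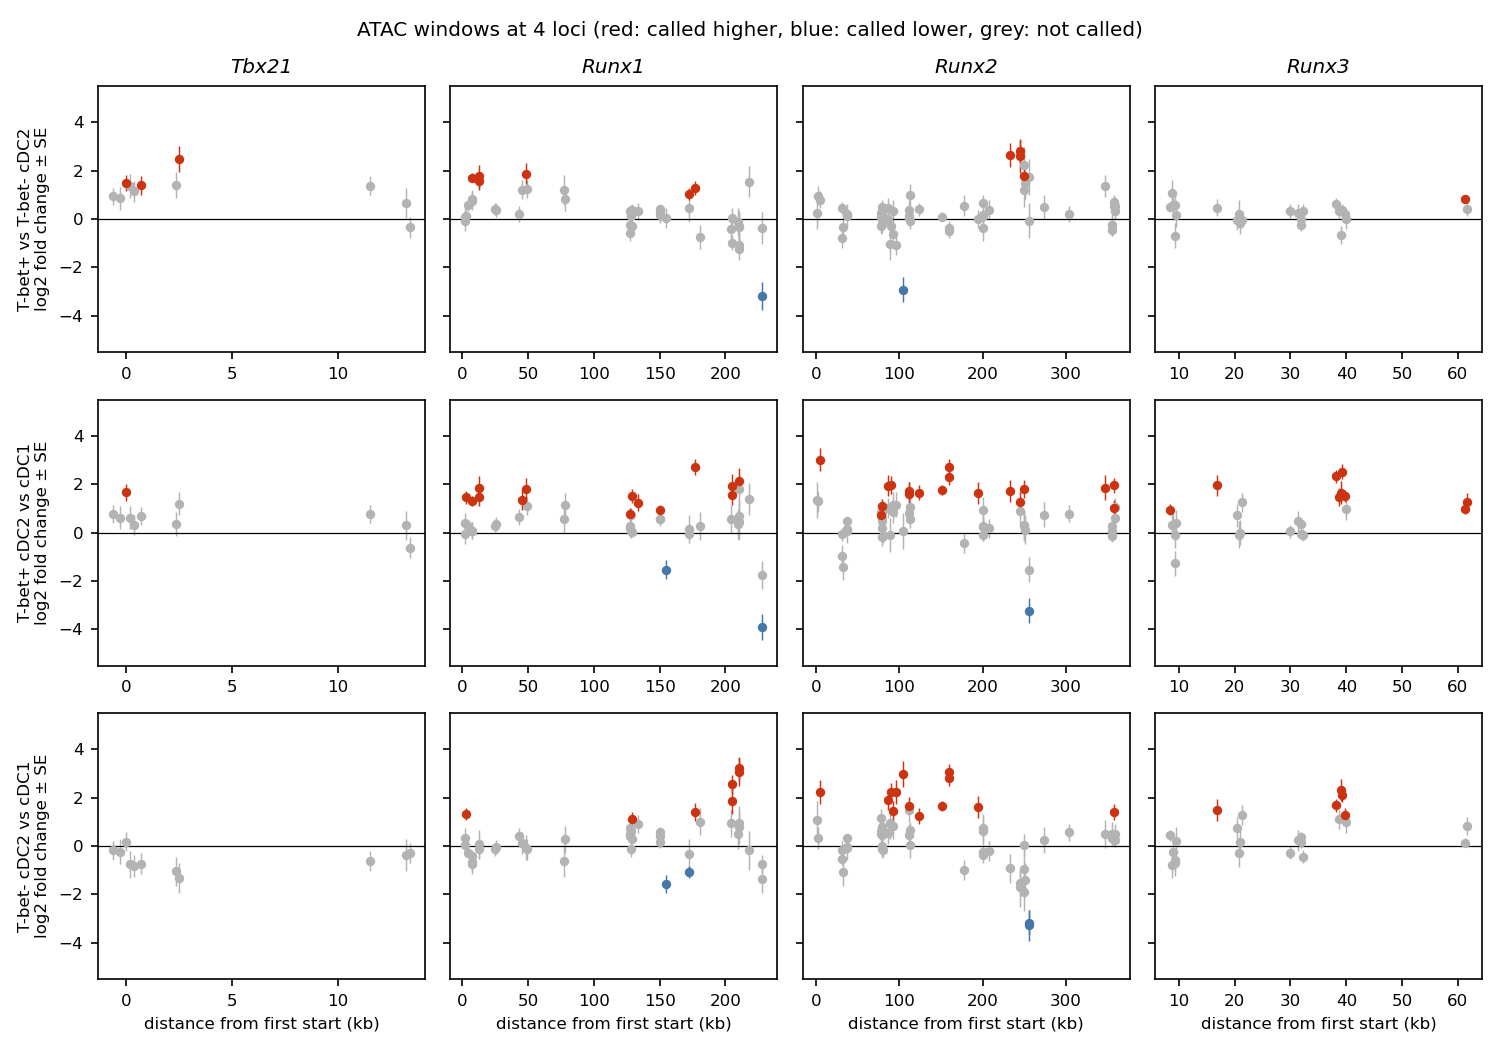
Log2 fold change with its SE of each tested window at *Tbx21*, *Runx1*, *Runx2* and *Runx3* against the distance from the first start in kb, by comparison, red where more open, blue where less open and grey where not called. In the comparisons with cDC1s the red windows extend along the introns of *Runx1* and *Runx2* and form a cluster in *Runx3*, and in the comparison of the cDC2 subsets *Runx3* has 1 red window.

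At *Tbx21*, 3 of 11 tested windows were more open in the T-bet+ than the T-bet- cDC2s (3.92% of all windows) and none less open (2.36%). The median log2 fold change over the tested windows was 1.36, and without T-bet- replicate 1 the count of called windows was 0. The window over the transcription start (chr11:97115260-97115409) had 69.2 and 66.3 normalized reads in T-bet+ cDC2s, 18.5 and 29.4 in the T-bet- cDC2s and 22 and 20.6 in cDC1s. It was the only one of the 11 windows that separated T-bet+ cDC2s from both other subsets, by 1.47 (adjusted p = 0.0011) and 1.66. In an intron, window +2477 had 25.9 and 29.5 normalized reads in T-bet+ cDC2s, 1.1 and 8.0 in the T-bet- cDC2s and 9.4 and 14.9 in cDC1s (2.49, adjusted p = 0.00056). Window +681 had 36.5 and 46.0, 13.0 and 17.8, and 27.2 and 24.0 (1.40, adjusted p = 0.009), and was called in 5 of 13 refits. In these last windows cDC1s lay between the cDC2 subsets, and no *Tbx21* window was called between T-bet- cDC2s and cDC1s. The knock-in lies at this locus in all 6 libraries.

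At *Runx1*, whose RNA was not called between subsets, 7 of 44 tested windows (15.9%) were called between the cDC2 subsets, against 6.28% of all windows. Of the 7, 6 were more open in T-bet+ cDC2s. Without T-bet- replicate 2 the count of called windows was 2. Window +7479, in an intron, had 374.8 and 277.2 normalized reads in T-bet+ cDC2s, 102.1 and 97.1 in the T-bet- cDC2s and 147.4 and 114.5 in cDC1s. It was 1.71 above T-bet- cDC2s (adjusted p = 1.6e-09) and 1.31 above cDC1s. Windows +12433, +12647 and +48066 had the same pattern at lower coverage, with 1.57, 1.76 and 1.87 over T-bet- cDC2s and 1.46, 1.84 and 1.81 over cDC1s. Window +176725 rose stepwise, with 17.8 and 13.7 normalized reads in cDC1s, 52.1 and 33.8 in T-bet- cDC2s and 116.3 and 93.9 in T-bet+ cDC2s, and was called in all 3 comparisons. Window +172066 was instead lowest in T-bet- cDC2s, with 57.6 and 44.5 against 94.2 and 113.3 in T-bet+ cDC2s and 110.8 and 101.9 in cDC1s. Downstream of the gene, window +228250 had 4.8 and 0.9 normalized reads in T-bet+ cDC2s, 26.1 and 26.7 in the T-bet- cDC2s and 30.3 and 58.4 in cDC1s, so that it closed in T-bet+ cDC2s by 3.17 against T-bet- cDC2s (adjusted p = 3.9e-05).

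Not all *Runx1* windows favoured T-bet+ cDC2s. Window +210574, in an intron that the predicted gene *Gm26626* overlaps, was more open in T-bet- cDC2s than in cDC1s by 3.22 and in T-bet+ cDC2s than in cDC1s by 2.14. The difference of -1.09 between the cDC2 subsets was not called (adjusted p = 0.033). At the proximal promoter, the window 109 bases before the nearest annotated start had 139.4 and 191.5 normalized reads in T-bet+ cDC2s, 187.9 and 212.0 in the T-bet- cDC2s and 135.9 and 192.3 in cDC1s, and it was not called in any comparison.

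**Figure D4:**
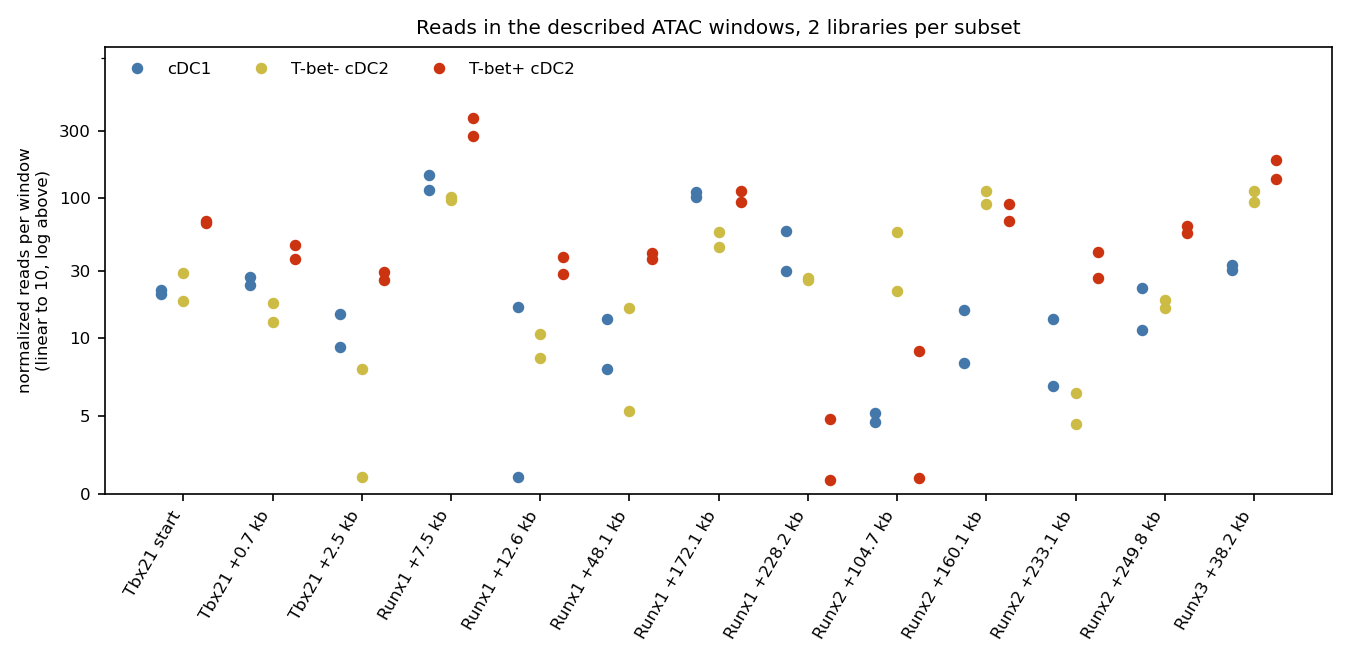
Normalized reads (axis linear to 10 and logarithmic above) of the described windows in the 6 ATAC libraries, 2 per subset, named by gene and distance from the first start in kb. In most of these windows the called differences exceed the gap between the 2 libraries of a subset; *Runx2* +104730, with 1.0 and 9.2 reads in T-bet+ cDC2s, is spread more widely.

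At *Runx2*, the openings shared by the cDC2 subsets were the main pattern. 18 of 63 tested windows were more open in T-bet+ cDC2s than in cDC1s (11% of all windows). In T-bet- cDC2s 13 were more open than in cDC1s (7.32% of all windows), 10 of them in both subsets. *Runx2* RNA was also higher in both cDC2 subsets than in cDC1s. Window +160057 had 90.3 and 69.1 normalized reads in T-bet+ cDC2s, 90.1 and 113.1 in the T-bet- cDC2s and 8.4 and 16 in cDC1s (2.70 and 3.06). Window +150792 had 268.1 and 204.4, 210.7 and 230.7, and 66.9 and 72.1 (1.76 and 1.66). Both cDC2 subsets lay clear of the cDC1s in these windows and overlapped each other. Fewer windows, 5 of 63, separated the cDC2 subsets, a share of 7.9% that is near the 6.28% of all windows. Windows +233075, +245218, +245548 and +249753, in introns of the 3′ part of the gene, were 2.63, 2.61, 2.81 and 1.76 more open in the T-bet+ than the T-bet- cDC2s. Window +104730 went the other way, with 1.0 and 9.2 normalized reads in T-bet+ cDC2s, 21.7 and 57 in the T-bet- cDC2s and 5.2 and 4.6 in cDC1s (-2.93, adjusted p = 2.9e-05). Window +256197 was open in cDC1s, with 36.6 and 44.6 normalized reads, and had 2.7 to 6.5 in the cDC2s.

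At *Runx3*, 9 of 24 windows were more open in T-bet+ cDC2s than in cDC1s (11% of all windows) and 5 in T-bet- cDC2s (7.32%), and none was less open. Windows +38236, +38685, +38966, +39237 and +39707 lay within 2 kb of each other and were 1.46 to 2.52 more open in T-bet+ cDC2s than in cDC1s. The first of them had 187.4 and 137.2 normalized reads in T-bet+ cDC2s, 93.4 and 113.1 in the T-bet- cDC2s and 33.5 and 30.9 in cDC1s, with 0.64 between the cDC2 subsets (adjusted p = 0.055, not called). The 1 window called between the cDC2 subsets, +61270, lay downstream of the gene and had 396.9 and 278.1 normalized reads in T-bet+ cDC2s, 192.2 and 187.1 in the T-bet- cDC2s and 174.6 and 168.3 in cDC1s (0.83, adjusted p = 0.00084). It is 4.2% of the windows at the locus, below the 6.28% of all windows. The 5 windows at annotated *Runx3* promoters were not called in any comparison.

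*Cbfb* had 5 windows. None was called between the cDC2 subsets, and 1 window downstream of the gene was more open in both cDC2 subsets than in cDC1s (1.38 and 1.35). Window +7140 was less open in T-bet- cDC2s than in cDC1s (-1.81), with 9.8 and 8.9 against 25.1 and 41.2 normalized reads.

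The letters of these windows were searched for the T-box core and the Runx core on both strands. Of all 177956 windows, 8.3% held a T-box core and 14.8% a Runx core. Among the 6529 windows more open in the T-bet+ than the T-bet- cDC2s the shares were 15.5% and 28.3%, and among the 3931 less open windows 3.0% and 16.4%. Of the 14 windows at the 6 loci that were more open in T-bet+ cDC2s, 0 held a T-box core and 6 (42.9%) a Runx core, namely *Tbx21* +681, *Runx1* +12647, +48066 and +172066, and *Runx2* +233075 and +249753. Over all 156 windows of the loci, 10 (6.4%) held a T-box core and 33 (21.2%) a Runx core, with 13 of the latter at *Runx1*, 15 at *Runx2*, 2 each at *Runx3* and *Cbfb* and 1 at *Tbx21*. The longer T-box site TCACACCT, which contains the core, was in 0.7% of all windows and in none of the 14, and the longer Runx site TGTGGTT was in 5.2% of all windows and in 2 of the 14. The windows at *Runx2* with a T-box core included +160057, open alike in both cDC2 subsets, and the 1 at *Runx3* was +38236. A match describes letters and not a bound factor, and neighbouring windows can share 1 match. The 250 bases before the *Tbx21* start held neither core, while 13.7% and 16.8% of 32851 annotated mouse promoters of 300 bases held a T-box core and a Runx core.

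**Figure D5:**
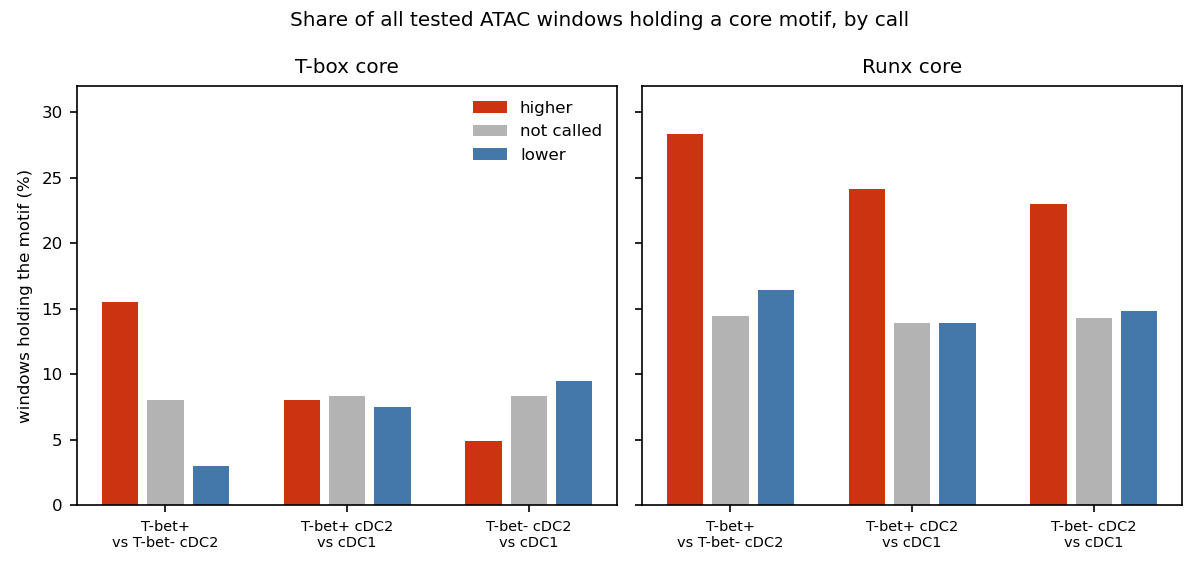
Share of all tested windows that hold a T-box core (AGGTGT) or a Runx core (TGTGGT), in percent, by comparison and call. The bars for windows more open in the T-bet+ than the T-bet- cDC2s are the highest for both motifs (15.5% and 28.3%), and in the comparisons with cDC1s the Runx core stands at 24.1% and 23.0% of the more open windows.

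Lists of genes around these factors, chosen with earlier results of the data known, were read from the same fits. Of the T-box genes other than *Tbx21* and *Eomes*, 9 of 15 were in the table and 2 were tested in spleen. *Tbx3*, with 3.87 to 37.8 normalized counts in spleen T-bet+ cDC2s and 0 in every spleen cDC1 library, passed between them (adjusted p = 0.021), where 18.2% of all genes were called. *Mga*, a MAX partner with a T-box domain, differed by -0.55 between the cDC2 subsets (adjusted p = 0.62). Of 16 tested Runx co-factors, mostly Groucho/TLE co-repressors and chromatin enzymes, 0 passed between the cDC2 subsets in spleen (5.38% of all genes), with a median of 0.06 (-0.01 over all genes). In spleen T-bet+ cDC2s over cDC1s 1 rose, where 18.2% of all genes were called: *Tle2*, with 38.9 to 80.3 normalized counts against 0 to 12.2. In MLN cDC1s against spleen cDC1s, where 11.7% of all genes were called, *Tle3* rose by 1.21 (adjusted p = 0.0091) and *Tle1* fell by 2.73 (adjusted p = 0.036). With the GC class as a term neither passed (1.1, adjusted p = 0.054, and -0.52, adjusted p = 0.65), and the lowest spleen cDC1 library had 51.35 normalized counts of *Tle1*, inside the range of the MLN cDC1s (24.95 to 86.26).

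Of 15 tested genes known as T-bet targets in lymphocytes, 3 rose in spleen T-bet+ over T-bet- cDC2s and 0 fell, where 5.38% of all genes were called in either direction, with a median of -0.13 (-0.01 over all genes). *Fasl*, the ligand of the death receptor Fas, had 84.9 to 132 normalized counts in T-bet+ cDC2s and 0 to 6.47 in T-bet- cDC2s (adjusted p = 0.026), and the chemokines *Ccl3* and *Ccl4* rose by 1.26 (adjusted p = 0.018) and 1.31 (adjusted p = 0.03). With the GC class as a term none of these passed (adjusted p = 0.06, 0.066 and 0.069 for *Fasl*, *Ccl3* and *Ccl4*). Against cDC1s, 6 of the 15 rose in T-bet+ and 5 in the T-bet- cDC2s and 1 fell in each, where 18.2% and 15.9% of all genes were called in either direction. *Zeb2*, a repressor needed for cDC2s, rose in both, by 4.95 and 7.03, and the chemokine receptor gene *Cxcr3* fell in both (-5.19 and -5.06). *S1pr5*, a sphingosine phosphate receptor, had 31.9 to 72.6 normalized counts in T-bet+ and 44.6 to 528 in T-bet- cDC2s of the spleen and 0 in every spleen cDC1 library. In MLN, where edgeR called 0 of the 15298 genes between the cDC2 subsets, *Fasl* was at 0 in every cDC1 and T-bet- cDC2 library against 17.7 and 26.8 in T-bet+ cDC2s. *Ccl3* was lower in MLN than in spleen in cDC1s (-1.28), in T-bet- cDC2s (-1.92) and also in T-bet+ cDC2s (-2.08), and with the GC class as a term it passed in the T-bet- cDC2s (adjusted p = 0.013) but not in the cDC1s (0.11) or T-bet+ cDC2s (0.13).

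Of 12 tested genes known as Runx targets, 2 fell in spleen T-bet+ against T-bet- cDC2s (5.38% of all genes called), with a median of -0.75. *Csf1r*, the receptor of macrophage colony-stimulating factor, fell by 3.38 (adjusted p = 0.00014), from 45650 to 74220 normalized counts in T-bet- cDC2s to 5068 to 6436 in T-bet+ cDC2s. *Cd8a* fell by 1.96 (adjusted p = 0.0055), from 251.5 to 335.6 normalized counts in T-bet- to 49.36 to 107.4 in T-bet+ cDC2s. Spleen cDC1s had 22260 to 30210. The cDC1 markers *Clec9a* and *Cadm1* were also higher in spleen T-bet- than T-bet+ cDC2s, while *Batf3* was lower and the other cDC1 markers overlapped. The part of cDC1s in these levels was not tested. The T cell co-receptor genes *Cd4* and *Cd8a*, which Runx factors regulate in opposite directions in T cells, split the cDC lineages: *Cd4* was 4.17 and 4.32 higher in T-bet+ and T-bet- cDC2s than in cDC1s of the spleen, and *Cd8a* fell in the same comparisons (-8.47 and -6.51). *Itgae*, which encodes CD103, fell likewise (-8.94 and -7.93). In MLN *Csf1r* and *Cd4* rose in both cDC2 subsets over cDC1s and *Itgae* fell.

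Of 17 tested T-bet partners and regulators, 2 fell in spleen T-bet+ against T-bet- cDC2s, where 5.38% of all genes were called. Among them was *Prdm1*, which encodes the repressor Blimp1 (-1.49, adjusted p = 0.034, and 0.071 with the GC class as a term). Against cDC1s, 4 rose and 4 fell in T-bet+ cDC2s (18.2% of all genes called), and 6 rose and 1 fell in T-bet- cDC2s (15.9%). *Stat4*, which carries interleukin-12 signals, *Prdm1*, *Ets1* and *Bhlhe40* rose in both, by 3.73, 3.48, 3.39 and 2.42 in T-bet+ and by 3.02, 4.97, 2.43 and 2.84 in T-bet- cDC2s. Of 18 genes of this list tested between the tissues, 4 rose and 1 fell in MLN cDC1s against spleen cDC1s, where 11.7% of all genes were called. Among those that rose were *Stat4*, *Irf1* and *Prdm1*, by 4.95, 2.05 and 1.97. *Ifngr1*, a receptor chain of interferon-γ, fell by 1.31 (adjusted p = 0.015, and 0.051 with the GC class as a term).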

How the data were processed

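RNA was amplified from sorted cells with SMART-Seq v4 reagents, and the authors made the deposited counts per gene with HISAT2 2.1.0 (genome mm10) and Rsubread over GENCODE genes. For the deposited ATAC-seq counts per window, the authors aligned reads with Bowtie2 2.2.5, shifted them for the Tn5 cut, called peaks on pooled reads with MACS2 2.1.1.20160309 and counted reads in 150-base windows at peak summits. No deposited column of values was left unused (0). The strand setting of the counting is not given in the sources used here. One sentence of the study's methods exchanges RFP+ and RFP-, and the labels were followed.

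Genes or windows were tested over the whole table with edgeR 4.0.16 (R 4.3.3): TMM normalization, filterByExpr, a quasi-likelihood F test and Benjamini-Hochberg adjustment over all features, called below 0.05 for RNA, and for ATAC below 0.01 where the log2 fold change also exceeded 0.5 in size. Spleen, MLN and both tissues were 3 separate RNA fits, each with all its subsets. Normalized counts are scaled by TMM over the 16 RNA or 6 ATAC libraries, which held 20993220 to 29006549 counts and 7270164 to 10081555 counts. DESeq2 1.42.0, other scalings, filters, thresholds, blocks and the omission of each library were alternatives, and 2 more (the newer quasi-dispersion estimate; the higher GC class alone) were added after seeing the data. p-values measure the spread between libraries. Replicate numbers were not used as pairs in the main fits, because not every same-numbered pair of libraries deviated together.

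The 6 genes and the lists were chosen with earlier results of these data known. Named genes were the members, up to 4 genes per list and direction that passed, ranked by fold change, and the 3 genes with the highest Pearson correlation of log2 CPM to each member, among genes averaging 50 or more normalized counts, predicted genes left out; some of the genes so named are not reported here. Windows belonged to the closest gene within 50000 bases. Gene models were those of GENCODE M21, and promoters of the RefSeq table (GRCm38). Each fit was first tested on simulated counts.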

Additional observations from a re-analysis of the deposited data

How the results depend on the processing

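Each count of genes or windows was recomputed under every alternative: 199 of 249 counts stayed within 1.5 times the main count. Of 1220 values of single genes and loci, 1089 stayed the same. For genes this means the same direction and side of the threshold, and for loci a count of called windows within 1.5 times the main count. Among the gene values, 47 changed sign, none of which was called in either fit. Except where a value or the construction of an alternative shows it, the cause was not tested.

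Over all genes, counts of calls differed by over 1.5 times from the main fit in 10 of 19 alternatives between the spleen cDC2 subsets (774, range 272 to 1521), and in 7 of 16 between the MLN cDC2 subsets (0, up to 554 without a filter). Against cDC1s they ranged from 1431 to 3417 and 1199 to 3077 in spleen (2613 and 2279) and from 285 to 2440 and 177 to 2477 in MLN (952 and 885), and between tissues from 485 to 3544 in cDC1s (1961), from 186 to 2435 in T-bet- cDC2s (1000) and from 36 to 2875 in T-bet+ cDC2s (855); the interaction gave up to 186 (1).

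Same-numbered libraries had correlated deviations of -0.74 to 0.43 in spleen RNA, -0.14 to 0.66 in MLN RNA and -0.06 to 0.04 in ATAC, so the numbers were not taken as pairs. With the replicate block the genes called were 0 in spleen T-bet+ against T-bet- cDC2s (356 of all genes in place of 774), 0 in MLN T-bet+ cDC2s against cDC1s, 0 in MLN T-bet- cDC2s against cDC1s and 1 between tissues in cDC1s; it gave -0.15 for *Runx3* in MLN T-bet+ against T-bet- cDC2s and -0.02 for *Runx1* in MLN T-bet+ cDC2s against cDC1s. By the number at the end of the MLN library names, the 5 same-numbered pairs had correlations of -0.01 to 0.66 and 5 of 7 libraries correlated best with their own number. A block by it gave 4 and 2 called genes in MLN T-bet+ and T-bet- cDC2s against cDC1s (2440 and 2477 of all genes in place of 952 and 885): besides the main calls, *Runx2* (0.98, adjusted p = 0.048), *Runx3* (1.11, 0.021) and *Cbfb* (0.70, 0.048) in T-bet+ and *Runx3* (1.49, 0.0071) in T-bet- cDC2s. It gave -0.38 for *Runx3* between the MLN cDC2 subsets. The block called 14, 43 and 30 windows.

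In spleen T-bet+ against T-bet- cDC2s the count of 1 became 0 at an adjusted p under 0.01, with at least 10 counts in every library, which removes *Tbx21*, and with the GC class term. That filter left 1 gene in spleen T-bet+ cDC2s against cDC1s and 0 in MLN T-bet+ cDC2s against cDC1s. DESeq2 called 1 gene and the fit without a filter 1 gene in MLN T-bet+ against T-bet- cDC2s, the latter fit 2 in MLN T-bet+ cDC2s against cDC1s, 2 between tissues in T-bet- cDC2s and likewise 2 in T-bet+ cDC2s, where DESeq2 called 2 and the newer quasi-dispersion estimate 1. An adjusted p under 0.01 left 0 genes in MLN T-bet- cDC2s against cDC1s and 0 between tissues in cDC1s, where the class term also left 0. Stricter window thresholds (0.001 and 1) called 8 windows and DESeq2 7 in T-bet+ against T-bet- cDC2s, and 24 and 25 in T-bet+ cDC2s against cDC1s.

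Signs changed with the GC class term in spleen T-bet+ against T-bet- cDC2s (*Runx1* -0.78, *Runx3* -0.39, *Cbfb* -0.22; within the higher class *Runx1* -0.77 and *Cbfb* -0.04), T-bet+ cDC2s against cDC1s (*Cbfb* -0.18 and -0.28) and T-bet- cDC2s against cDC1s (*Runx1* 0.31 and 0.29, *Cbfb* 0.04). In MLN against spleen the term gave *Tbx21* 0.40 and *Runx1* 0.23 in cDC1s, *Runx1* 0.07 in T-bet- cDC2s, and *Runx1* 0.75, *Runx2* 0.30 and *Cbfb* 0.61 in T-bet+ cDC2s, and interactions of 0.67 for *Runx1* and 0.53 for *Runx3*.

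Without each library in turn, called genes ranged from 0 to 1 (spleen T-bet+ against T-bet- cDC2s), 2 to 2 and 1 to 1 (spleen T-bet+ and T-bet- cDC2s against cDC1s), 0 to 0, 0 to 1 and 0 to 1 (MLN, same order), 0 to 3, 0 to 0 and 0 to 1 (tissues, in cDC1s, then T-bet- and then T-bet+ cDC2s) and 0 to 0 (interaction), and called windows from 8 to 17, 30 to 47 and 21 to 34. Log2 fold changes that changed sign ranged, in spleen T-bet+ against T-bet- cDC2s, from -0.2 to 0.8 (*Runx1*) and -0.22 to 0.02 (*Runx2*); in spleen T-bet+ cDC2s against cDC1s from -0.48 to 0.15 (*Runx1*) and -0.28 to 0.51 (*Cbfb*); in spleen T-bet- cDC2s against cDC1s from -1.03 to 0.13 (*Runx1*) and -0.31 to 0.58 (*Runx3*); in MLN from -0.5 to 0.39 (*Runx1*) and -0.74 to 0.8 (*Runx3*) between the cDC2 subsets, and for *Runx1* against cDC1s from -0.1 to 0.28 (T-bet+) and -0.32 to 0.57 (T-bet-); between tissues in T-bet- cDC2s from -1.23 to 0.07 (*Runx1*); and in the interaction from -0.99 to 0.32 (*Runx1*), -1.45 to 0.12 (*Runx3*) and -0.33 to 0.54 (*Cbfb*).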
